A study of Mus musculus with 3 samples.

Results

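Nephronectin, its integrin receptor subunits and the Fraser complex genes were followed across the cell classes of the embryonic mouse kidney. The 8 genes, taken as a named list, were Npnt, Fras1, Frem1, Frem2, Itga8, Itga9, Itga6 and Itgb1, of 17829 genes shared by the 3 raw count tables. Cells came from wild-type E14.5 kidneys, of a mixed strain background that was mostly CD-1 and 129, with no treatment. They were profiled as 1 library each on Drop-seq and 10x Chromium, droplet methods that count unique molecular identifiers (UMIs), and on Fluidigm C1, a chip method that counts reads. The labels do not give the number of embryos behind a library. The p-values below measure only how class differences vary between these libraries, with a spread estimated over all classes together. That variation may be technical.

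Nephronectin is a secreted matrix protein of epithelial basement membranes and a ligand of the integrin made of the alpha 8 chain (Itga8) and the beta 1 chain (Itgb1). In the mouse kidney this receptor acts in the metanephric mesenchyme, and loss of either the ligand or the alpha 8 chain can prevent outgrowth of the ureteric bud. FRAS1, FREM1 and FREM2 are large matrix proteins that stabilise one another in a basement membrane complex that helps to hold nephronectin in place, and loss of the complex also causes kidney agenesis.

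After filtering, 1964 Drop-seq, 2130 10x and 883 Fluidigm cells were kept, with 17751487 UMIs, 17465306 UMIs and 171283962 reads in all. Clusters were named from marker lists with the 8 genes kept out of the clustering, and 5 classes were found in all libraries. Ureteric epithelium (the bud and collecting duct) held 175, 154 and 86 cells in Drop-seq, 10x and Fluidigm, nephron epithelium 612, 450 and 143, cap mesenchyme (the nephron progenitors) 605, 201 and 177, stroma 411, 887 and 386, and endothelium 102, 367 and 78. No 12-base barcode was shared between the droplet libraries. The Fluidigm library stood apart. It gave no podocyte or distal cluster, and its ureteric cluster held reads of the distal gene Tmem52b in 27 of 86 cells, against 3 of 175 in Drop-seq and 4 of 154 in 10x. The summed level of the 10 cap mesenchyme markers in its ureteric class was 715 CPM (counts scaled to the same total of shared-gene counts in every class sum), with 10 of 10 above 0, against 170 CPM in Drop-seq and 135 CPM in 10x (9 of 10, Meox1 at 0). Several named clusters had none of their own markers among their top 10 genes. They were a Fluidigm cap mesenchyme cluster of 93 cells, Drop-seq cap mesenchyme clusters of 164 and 88 cells led by histone and mitosis genes, ureteric clusters of 16 cells in Drop-seq and 36 cells in 10x (the last led by genes such as Krt19 and Upk3a), and a 10x endothelial cluster of 147 cells. Results were recomputed without the Fluidigm cluster, and not without the others. The part of these features in the results was not tested beyond the values given without those cells.

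The promoters of the ligand Npnt, its receptor chain Itga8 and the Fraser complex gene Frem2 are shown because these 3 genes had the largest differences of the 8 between ureteric epithelium and cap mesenchyme, Itga8 in the opposite direction. Each line gives the 250 bases before a RefSeq start site (build GRCm38.p6) on the gene's own strand, 5′ to 3′, and the capitals mark the motif GCCNNNGGC, which AP-2 transcription factors bind, searched on both strands. The Npnt stretch is chr3:132950292-132950541 (minus strand), the Frem2 stretch chr3:53657356-53657605 (minus strand) and the Itga8 stretch chr2:12301945-12302194 (minus strand).
Npnt: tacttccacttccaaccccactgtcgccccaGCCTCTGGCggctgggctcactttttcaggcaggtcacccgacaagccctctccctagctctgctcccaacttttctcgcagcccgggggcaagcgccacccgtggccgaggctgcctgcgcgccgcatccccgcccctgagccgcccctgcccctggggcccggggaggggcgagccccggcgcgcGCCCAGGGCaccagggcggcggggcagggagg
Frem2: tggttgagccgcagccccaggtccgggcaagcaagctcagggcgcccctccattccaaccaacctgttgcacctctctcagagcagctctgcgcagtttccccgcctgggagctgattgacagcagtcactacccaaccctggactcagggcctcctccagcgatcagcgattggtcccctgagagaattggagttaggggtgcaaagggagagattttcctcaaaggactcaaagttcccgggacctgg
Itga8: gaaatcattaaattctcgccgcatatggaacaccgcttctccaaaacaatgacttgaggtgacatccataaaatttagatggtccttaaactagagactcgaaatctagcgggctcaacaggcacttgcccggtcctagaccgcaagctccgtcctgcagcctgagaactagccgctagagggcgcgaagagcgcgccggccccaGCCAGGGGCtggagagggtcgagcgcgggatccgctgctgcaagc
The motif stood 2 times before Npnt, 1 time before Itga8 and 0 times before Frem2, and it occurs in 16.6% of the 32851 RefSeq promoter windows of 300 bases. These stretches hold 21 CpG sites before Npnt, 18 before Itga8 and 8 before Frem2. GATA motifs (AGATAA and also AGATAG, with TGATAA and also TGATAG, on either strand), present in 29.8% of all windows, were found in none of the 3 windows. TCF/LEF motifs (CTTTGAT and also CTTTGTT, with CTTTGAA and also CTTTGTA, on either strand), present in 16.9% of all windows, were likewise found in none of the 3. These matches describe letters only. RefSeq windows were matched for 6 of the 8 genes.

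In the annotation used (GENCODE M21, mm10), Npnt lies on chromosome 3 from 132881745 to 132950291, Frem2 on chromosome 3 from 53513938 to 53657355, and Itga8 on chromosome 2 from 12106632 to 12301922, all on the minus strand. Of the 7368 exonic bases of Itga8, 372 overlap the antisense gene E030013I19Rik. Of the 17709 exonic bases of Fras1 (chromosome 5, 96373955 to 96784728, plus strand), 159 overlap Gm42604 on the opposite strand. No source used here says whether counting used strand, so reads of Itga8 and Fras1 in those stretches cannot be told apart from reads of their partners.

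Npnt, the ligand, was high in ureteric and nephron epithelium and low in both mesenchymal classes in each library. In Drop-seq its level was 201 CPM in ureteric epithelium, 93.3 CPM in nephron epithelium, 9.19 CPM in cap mesenchyme, 5.34 CPM in stroma and 7.08 CPM in endothelium. In 10x it was 186 CPM in ureteric epithelium, 174 CPM in nephron epithelium, 9.95 CPM in cap mesenchyme, 6.25 CPM in stroma and 5.05 CPM in endothelium. In Fluidigm it was 13.0 CPM in ureteric epithelium, 19.4 CPM in nephron epithelium, 1.33 CPM in cap mesenchyme, 1.38 CPM in stroma and 5.20 CPM in endothelium. The epithelial values did not overlap those of cap mesenchyme or stroma within a library, while the order of the epithelial classes turned round in Fluidigm. The fitted difference was a log2 fold change of 4.02 ± 0.63 in ureteric epithelium over cap mesenchyme, with an adjusted p of 0.00265 in edgeR's quasi-likelihood test. Over stroma it was 4.48 ± 0.62, with an edgeR adjusted p of 0.00111. Neither call passed without the Drop-seq library (3.83, edgeR adjusted p 0.103, and 4.10, edgeR adjusted p 0.0640). The SE after each ± comes from the joint fit of 15 class sums, of 5 classes in 3 libraries.

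**Figure D1:**
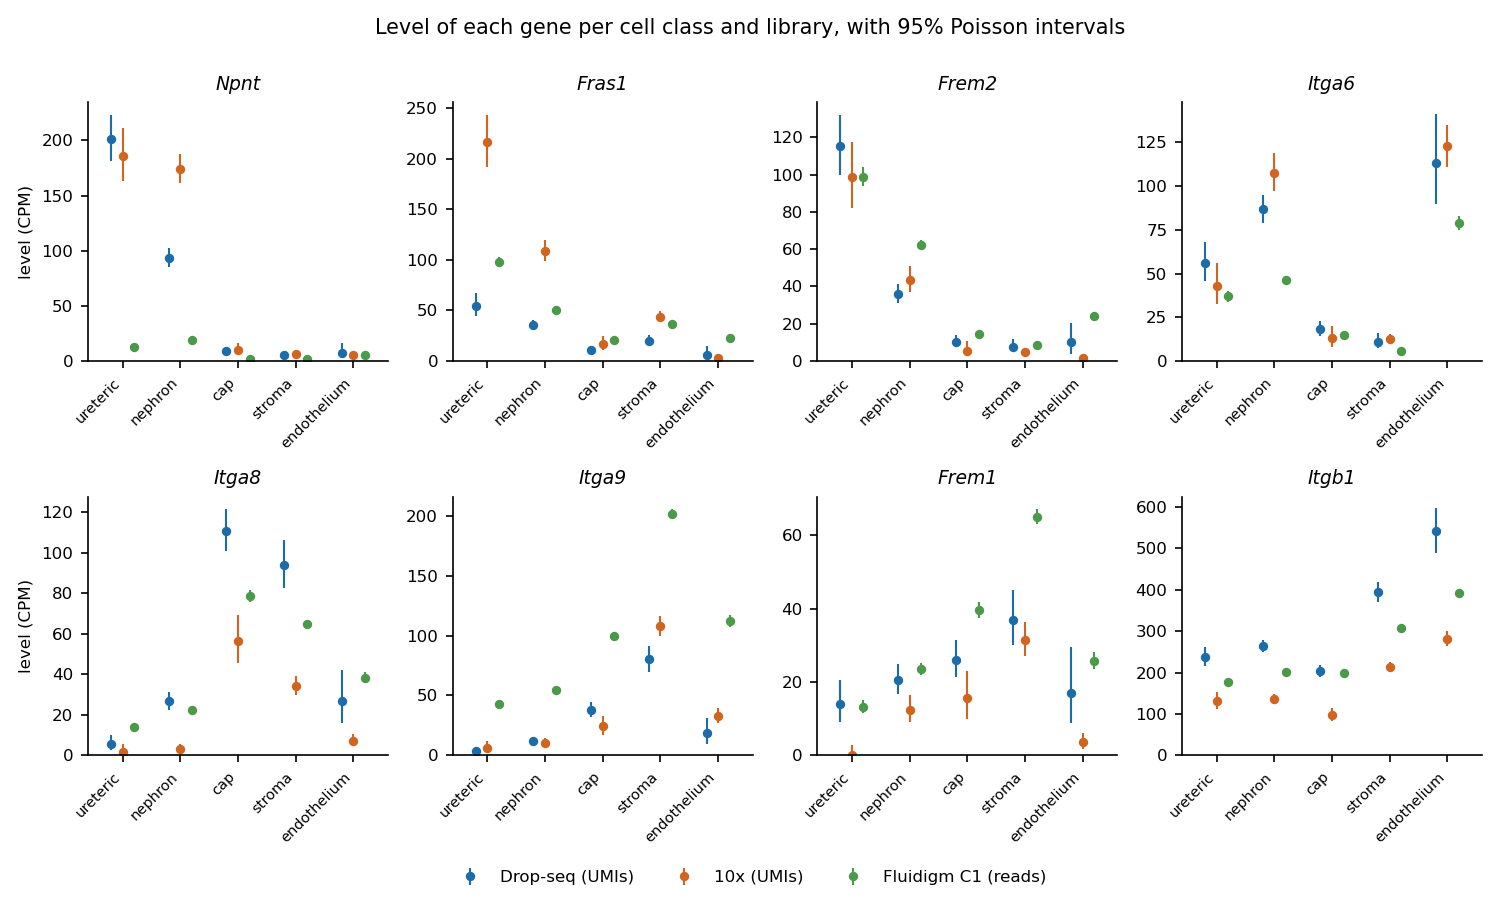
Level of each of the 8 genes in CPM (y axis, linear, its own scale per gene) by cell class (x axis), with 1 point per library and 95% Poisson intervals that cover counting error only. For Fluidigm, where reads are not separate molecules, these intervals are too narrow. Npnt, Fras1 and Frem2 stand high in ureteric epithelium (Npnt 201 CPM in Drop-seq, against 9.19 CPM in cap mesenchyme), and Itga8 stands high in cap mesenchyme and stroma (5.59 CPM in Drop-seq ureteric epithelium, against 111 CPM in cap mesenchyme).

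Within the nephron, Npnt was highest in the proximal tubule clusters of all 3 libraries. The proximal tubule level was 301 CPM in Drop-seq, 392 CPM in 10x and 31.9 CPM in Fluidigm, each above the ureteric level of the same library. In 10x, 104 of 111 proximal tubule cells held an Npnt UMI. Early nephron epithelium had 70.3 CPM in Drop-seq, 158 CPM in 10x and 3.72 CPM in Fluidigm, and podocytes had 81.1 CPM in Drop-seq and 77.5 CPM in 10x. The distal nephron had the lowest nephron level in both droplet libraries, at 39.2 CPM in Drop-seq and 52.2 CPM in 10x. These stages were not tested against each other.

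Fras1 and Frem2, which encode epithelial members of the Fraser complex, followed the same side. Fras1 had 54.8 CPM in Drop-seq, 217 CPM in 10x and 98.0 CPM in Fluidigm ureteric epithelium, against 11.2, 16.8 and 20.5 CPM in cap mesenchyme. In stroma Fras1 had 19.4, 43.7 and 36.4 CPM in Drop-seq, 10x and Fluidigm, above cap mesenchyme and below ureteric epithelium in each library. Its fitted log2 fold change was 2.67 ± 0.55 in ureteric epithelium over cap mesenchyme (edgeR adjusted p 0.0109). Over stroma it was 1.78 ± 0.52 (edgeR adjusted p 0.0429), a call that passed in 9 of 18 alternative settings and was lost without the Drop-seq library (1.89, adjusted p 0.319).

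Frem2 had 115 CPM in Drop-seq, 98.6 CPM in 10x and 98.9 CPM in Fluidigm ureteric epithelium, against 10.2, 5.60 and 14.2 CPM in cap mesenchyme. In stroma Frem2 had 7.62, 4.73 and 8.41 CPM. The ureteric values lay far above the mesenchymal ones in every library. The fitted log2 fold change was 3.35 ± 0.46 over cap mesenchyme (edgeR adjusted p 0.000739) and 3.998 ± 0.47 over stroma (edgeR adjusted p 0.000173). Nephron epithelium held intermediate Frem2 levels of 35.9 CPM in Drop-seq, 43.6 CPM in 10x and 62.2 CPM in Fluidigm. Among nephron stages the proximal tubule was the highest, at 45.4, 60.4 and 76.7 CPM, and the distal nephron the lowest, at 21.6 CPM in Drop-seq and 30.1 CPM in 10x.

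Frem1, which encodes the family member known to be made by mesenchyme as well as epithelium, was on the other side. Ureteric epithelium had 13.98 CPM in Drop-seq and 13.2 CPM in Fluidigm, and 0 UMIs in the 154 10x cells, which allows a level of up to 2.35 CPM and a share of cells with a UMI of up to 1.95%, which does not limit the share that expresses the gene. Cap mesenchyme had 26.1 CPM in Drop-seq, 15.5 CPM in 10x and 39.6 CPM in Fluidigm, and stroma had 37.0, 31.4 and 65.1 CPM. The level went up in the order ureteric epithelium, cap mesenchyme, stroma in all 3 libraries. Cap mesenchyme over stroma did not pass (-0.72 ± 0.39 on the log2 scale, edgeR adjusted p 0.260), and their counting intervals overlapped in Drop-seq. The fitted log2 fold change was -2.36 ± 0.44 in ureteric epithelium over stroma (edgeR adjusted p 0.00212). Over cap mesenchyme it was -1.65 ± 0.44 (edgeR adjusted p 0.0222), and this call was lost without Drop-seq (-2.02, adjusted p 0.152), without Fluidigm (-1.60, adjusted p 0.153), without the Fluidigm cap cluster of 93 cells (-1.29, adjusted p 0.109) and without the 29 Fluidigm ureteric cells with a Slc12a1 or Tmem52b read (-1.35, adjusted p 0.0588).

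Within the nephron Frem1 had its highest level in podocytes in both droplet libraries. Podocyte clusters had 51.9 CPM in Drop-seq and 57.2 CPM in 10x, while the other nephron clusters lay between 11.9 and 20.5 CPM in Drop-seq and between 4.01 and 6.72 CPM in 10x. The counting interval of the podocyte cluster lay above those of the other nephron clusters in 10x. In Drop-seq it overlapped that of an early nephron cluster of 29 cells. In 10x, Fras1 was also high in podocytes (153 CPM) and in the distal nephron (152 CPM), against 79.6 CPM in early nephron and 78.3 CPM in proximal tubule. Drop-seq had Fras1 at 51.9 CPM in podocytes and 37.5 CPM in the distal nephron, against 28.5 CPM in early nephron and 37.2 CPM in proximal tubule.

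**Figure D2:**
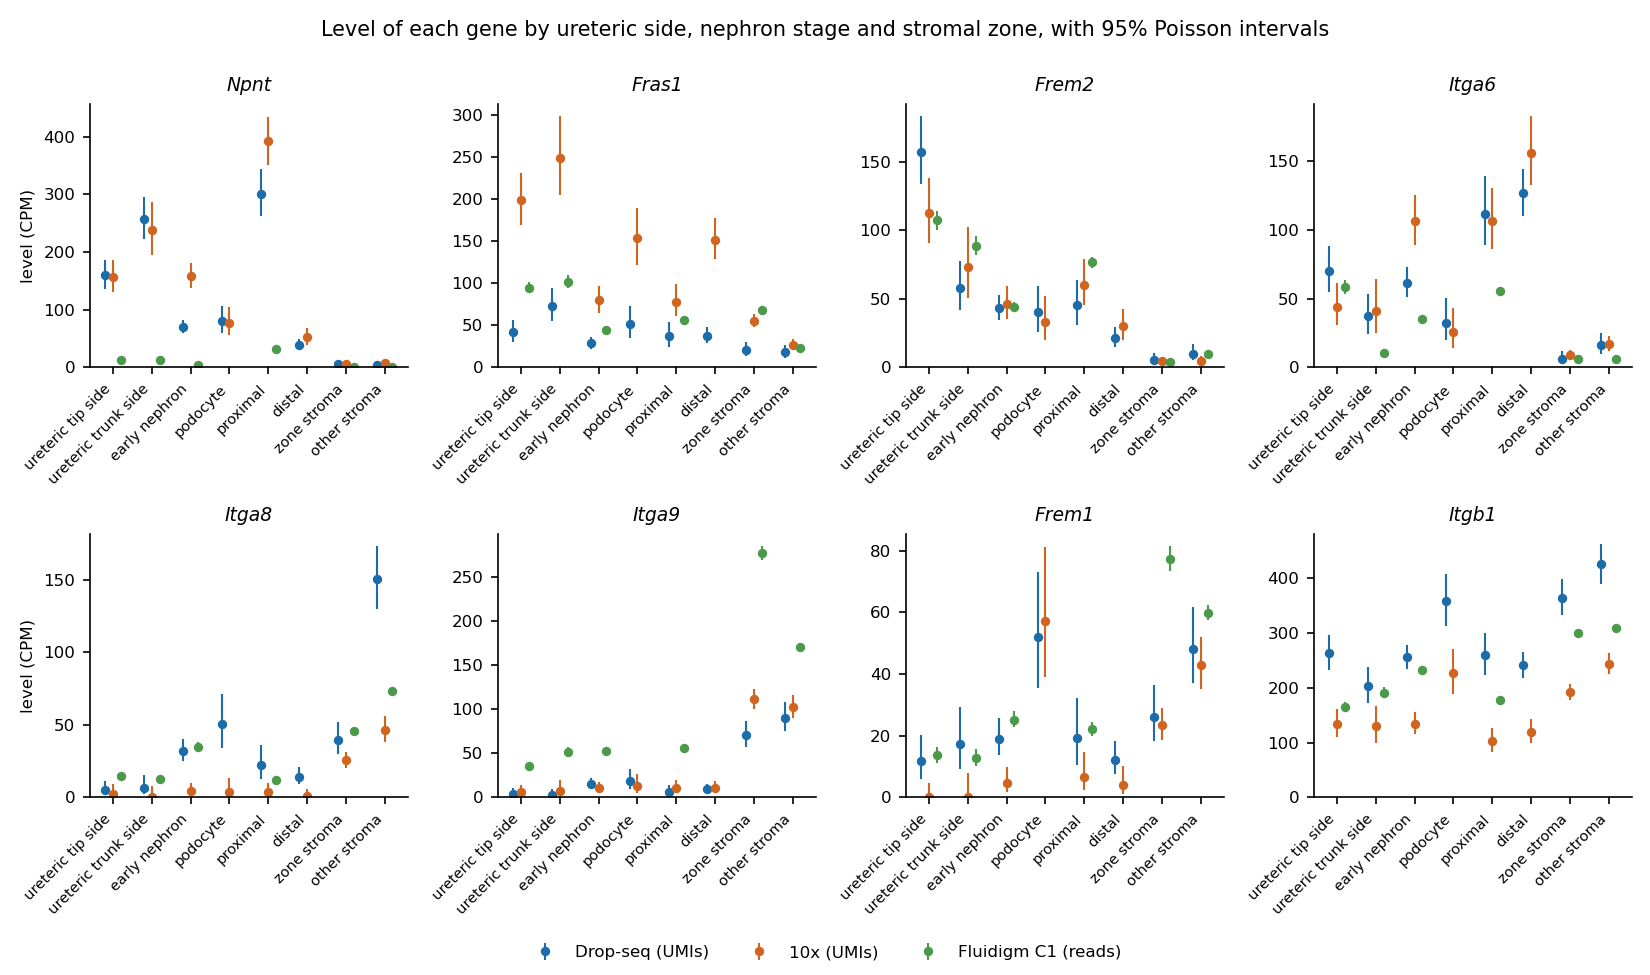
Level of each gene in CPM (y axis, linear) by ureteric side, nephron stage and stromal zone (x axis), with 1 point per library and 95% Poisson intervals for counting error only. Those intervals are too narrow for Fluidigm reads, and Fluidigm has no podocyte or distal point. Npnt peaks in the proximal tubule (392 CPM in 10x), Frem2 on the ureteric tip side (157 CPM in Drop-seq, against 58.1 CPM on the trunk side) and Frem1 in podocytes among the nephron stages (57.2 CPM in 10x).

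The receptor chain Itga8 had the reverse distribution of its ligand. In cap mesenchyme its level was 111 CPM in Drop-seq, 56.6 CPM in 10x and 78.6 CPM in Fluidigm, and in stroma it was 93.8, 34.1 and 64.8 CPM. In ureteric epithelium it was 5.59, 1.56 and 13.9 CPM, and in endothelium 26.9, 7.13 and 38.3 CPM. The 10x ureteric value rests on 2 UMIs. The fitted log2 fold change was -3.49 ± 0.50 in ureteric epithelium over cap mesenchyme (edgeR adjusted p 0.000950) and -2.98 ± 0.49 over stroma (edgeR adjusted p 0.00164). The call over stroma was lost without the Drop-seq library (-2.77, edgeR adjusted p 0.0508). Cap mesenchyme and stroma differed by 0.51 ± 0.40 (95% interval -0.38 to 1.40), which did not pass (edgeR adjusted p 0.479), although cap mesenchyme was the higher in 3 of 3 libraries.

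Summed over stromal clusters, Itga8 was higher in those named other stroma than in those named nephrogenic-zone stroma. Markers did not part these names cleanly. The Drop-seq nephrogenic-zone cluster had the other stroma markers Postn and Ogn among its top 10 genes. Other stroma clusters of 214 Drop-seq and 230 10x cells had the nephrogenic-zone marker Gucy1a3 there. A Fluidigm other stroma cluster of 158 cells had 3 of 11 other stroma markers detected above the rest. Itga8 levels were 150 CPM in other stroma and 39.6 CPM in nephrogenic-zone stroma in Drop-seq, 46.5 and 25.4 CPM in 10x, and 72.9 and 45.5 CPM in Fluidigm. The intervals of the sums did not overlap in any library, but those of Fluidigm treat each read as a separate molecule and are too narrow. No test was made between zones. Single 10x clusters did not keep the order, with 25.4 to 57.2 CPM in the other stroma clusters and 3.57 to 38.1 CPM in the nephrogenic-zone clusters. Frem1 had the same order in both droplet libraries, with 48.2 and 26.2 CPM in Drop-seq and 42.8 and 23.3 CPM in 10x, and the reverse in Fluidigm, with 60.0 CPM in other stroma and 77.3 CPM in nephrogenic-zone stroma. Fras1 was the higher in nephrogenic-zone stroma, with 17.9 CPM in other stroma and 20.9 CPM in nephrogenic-zone stroma in Drop-seq, 26.9 and 55.6 CPM in 10x, and 23.0 and 68.5 CPM in Fluidigm. In Drop-seq those Fras1 intervals overlapped.

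Itga9, a partner of the beta 1 chain that binds tenascin C and other matrix ligands, was highest in stroma in each library. Ureteric epithelium had 3.36 CPM in Drop-seq, 6.26 CPM in 10x and 42.7 CPM in Fluidigm, cap mesenchyme had 38.3, 24.2 and 99.6 CPM, and stroma had 80.1, 108 and 202 CPM. The fitted log2 fold change was -3.13 ± 0.40 in ureteric epithelium over stroma (edgeR adjusted p 0.000317) and -1.82 ± 0.40 over cap mesenchyme (edgeR adjusted p 0.0105). In cap mesenchyme over stroma it was -1.31 ± 0.35 (edgeR adjusted p 0.0348). Both calls that involve cap mesenchyme were lost without Drop-seq, without 10x, and without the Fluidigm cap cluster of 93 cells, where the values were -1.42 (adjusted p 0.115) over cap mesenchyme and -1.65 (adjusted p 0.0540) in cap mesenchyme over stroma. That cluster had 164 CPM of Itga9, 62.5 CPM of Frem1 and 107 CPM of Itga8, against 39.5, 18.3 and 52.0 CPM in the other Fluidigm cap cluster. Nephron epithelium had low Itga9 in the droplet libraries, at 12.1 CPM in Drop-seq and 10.6 CPM in 10x, and 54.5 CPM in Fluidigm. The stromal zones had no common order, with 90.2 CPM in other stroma and 70.3 CPM in nephrogenic-zone stroma in Drop-seq, 102 and 111 CPM in 10x, and 170 and 277 CPM in Fluidigm.

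Itga6, whose product pairs with beta 1 or beta 4 chains as a laminin receptor, was an epithelial and endothelial gene. Endothelium had 113 CPM in Drop-seq, 123 CPM in 10x and 78.9 CPM in Fluidigm, and nephron epithelium had 86.8, 108 and 46.2 CPM. Ureteric epithelium had 55.9, 43.0 and 36.9 CPM, against 18.4, 13.1 and 14.6 CPM in cap mesenchyme and 11.1, 12.3 and 5.91 CPM in stroma. The order endothelium, nephron, ureteric, cap mesenchyme, stroma was the same in all 3 libraries, but by their counting intervals endothelium overlapped nephron epithelium in Drop-seq and 10x, and cap mesenchyme overlapped stroma there. The fitted log2 fold change was 1.40 ± 0.20 in ureteric epithelium over cap mesenchyme (edgeR adjusted p 0.000271), 2.32 ± 0.21 in ureteric epithelium over stroma (edgeR adjusted p 3.75e-06) and 0.91 ± 0.21 in cap mesenchyme over stroma (edgeR adjusted p 0.0110). The last call was lost without Drop-seq (0.88, adjusted p 0.204), without Fluidigm (0.56, adjusted p 0.124), and without the Fluidigm cap cluster of 93 cells (0.63, adjusted p 0.0559). In the droplet libraries the distal nephron had the highest Itga6 level of the nephron stages, at 126 CPM in Drop-seq and 156 CPM in 10x, and podocytes had the lowest, at 32.4 and 25.8 CPM.

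Itgb1, the common beta chain, was present in every class. Its level was 541 CPM in Drop-seq, 281 CPM in 10x and 393 CPM in Fluidigm endothelium, and 395, 213 and 306 CPM in stroma. Ureteric epithelium had 238, 132 and 177 CPM, against 203, 97.0 and 200 CPM in cap mesenchyme. Ureteric epithelium and cap mesenchyme were not told apart, with a log2 fold change of 0.05 ± 0.10 (95% interval -0.17 to 0.27, edgeR adjusted p 0.815). Itgb1 was lower than in stroma in both, by -0.75 ± 0.10 in ureteric epithelium (edgeR adjusted p 0.000111) and -0.80 ± 0.10 in cap mesenchyme (edgeR adjusted p 0.000220). Podocytes had the highest Itgb1 level of the nephron stages in both droplet libraries, at 358 CPM in Drop-seq and 227 CPM in 10x.

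Counted over the 8 genes, 4 were higher and 3 lower in ureteric epithelium over cap mesenchyme at an adjusted p under 0.05, where 7.98% of 9398 genes tested were higher and 7.92% lower. That background leaves out genes used for clustering or naming, while the 8 genes and the 4 other lists were kept out of the clustering beforehand. With the adjustment over all 12331 fitted genes, 1411 were higher and 1127 lower in this comparison. The same limit holds for every background share below. The median log2 fold change was 0.73 over the 8 genes and -0.07 over all genes tested. In ureteric epithelium over stroma 4 were higher and 4 lower, against a background of 9.61% higher and 7.13% lower, with medians of 0.52 and 0.02. In cap mesenchyme over stroma 1 was higher (Itga6) and 2 were lower (Itga9 and Itgb1), against 6.83% higher and 4.81% lower, with medians of -0.13 and 0.09. Without the Drop-seq library, which also leaves fewer sums to estimate the spread, 2 genes passed in ureteric epithelium over cap mesenchyme (Itga8 and Itga6). In ureteric epithelium over stroma 5 passed. Npnt (4.10, edgeR adjusted p 0.0640), Itga8 (-2.77, edgeR adjusted p 0.0508) and Fras1 (1.89, edgeR adjusted p 0.319) no longer did. In cap mesenchyme over stroma 1 passed (Itgb1). Over all genes 290, 445 and 158 passed in these comparisons, against 1494, 1573 and 1094 with all libraries. The directions of the 8 genes were unchanged without Drop-seq. The log2 fold changes over cap mesenchyme were then 3.83 for Npnt, 3.36 for Frem2, 2.90 for Fras1, -1.37 for Itga9 and -2.02 for Frem1. Those comparisons share class sums, so their calls are not independent of each other.

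**Figure D3:**
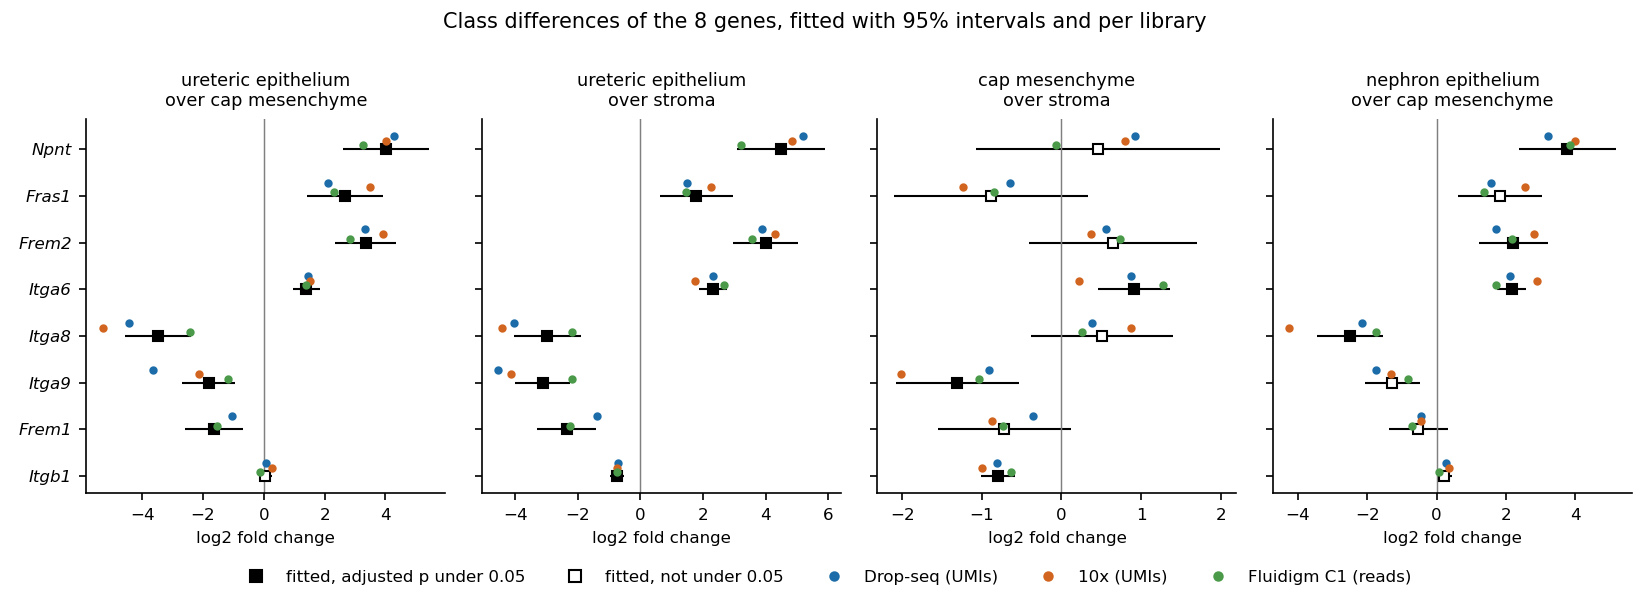
Log2 fold changes (x axis) of the 8 genes (y axis) in 4 class comparisons. Squares are fitted values with 95% intervals, filled where the adjusted p was under 0.05, and coloured points are the log2 ratios of each library, left out where a class had 0 counts (Frem1 in 10x ureteric epithelium). Npnt, Fras1, Frem2 and Itga6 lie right of 0 and Itga8, Itga9 and Frem1 left of 0 in ureteric epithelium over cap mesenchyme, where Npnt is at 4.02 and Itga8 at -3.49.

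Nephron epithelium was then set against its progenitors, the cap mesenchyme. Of the 8 genes 3 were higher, against a background of 4.34%, and 1 was lower, against 3.01%. Npnt was higher by 3.78 ± 0.62 on the log2 scale (edgeR adjusted p 0.00708), Itga6 by 2.17 ± 0.20 (edgeR adjusted p 1.81e-05) and Frem2 by 2.22 ± 0.45 (edgeR adjusted p 0.0130). Itga8 was lower, with a log2 fold change of -2.49 ± 0.43 (edgeR adjusted p 0.00618). Its nephron levels were 26.7 CPM in Drop-seq, 3.19 CPM in 10x and 22.3 CPM in Fluidigm, each under the cap mesenchyme level of that library. Fras1 (1.84 ± 0.54, edgeR adjusted p 0.0771) and Itga9 (-1.28 ± 0.36, edgeR adjusted p 0.0582) did not pass. Without the Drop-seq library Itga6 alone passed, where 145 genes passed in all. Without the Fluidigm library 6 of the 8 genes did, where 1154 genes passed in all. With all libraries 691 genes passed.

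Shares of cells were compared at a fixed depth of 4000 UMIs or 50000 reads per cell, with endothelium as the class taken to lack Npnt, Itga8 and the Fraser genes. Shallower cells were left out, which removed 1, 19 and 6 ureteric, 17, 21 and 11 cap mesenchyme and 0, 33 and 5 endothelial cells (Drop-seq, 10x, Fluidigm). Median depths before thinning were 7482 UMIs in ureteric epithelium and 6910.5 UMIs in endothelium in Drop-seq, 8154 and 8914 UMIs in 10x, and 159653.5 and 209362.5 reads in Fluidigm. Npnt was found in 39.1% of ureteric cells in Drop-seq (57.7% unthinned), 51.1% in 10x (69.5% unthinned) and 12.5% in Fluidigm (19.8% unthinned). In endothelium the thinned Npnt shares were 2.94%, 2.40% and 5.48%, and in cap mesenchyme 2.21%, 4.44% and 1.81%. The cap mesenchyme shares were at or below the endothelial ones in Drop-seq and Fluidigm, and the intervals overlapped in 10x, so Npnt in cap mesenchyme was not told apart from background. The Fluidigm intervals of ureteric epithelium and endothelium also overlapped.

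Itga8 was found in 27.9% of thinned cap mesenchyme cells in Drop-seq (43.6% unthinned), 20.6% in 10x (32.3% unthinned) and 53.6% in Fluidigm (61.6% unthinned). The endothelial shares of Itga8 were 7.84%, 4.79% and 32.9%, and the ureteric shares 1.15%, 0.741% and 16.25%. Every ureteric share lay under the endothelial one, so ureteric Itga8 was not told apart from background if endothelium lacks the gene. That lack was assumed and was not tested, and endothelium held 26.9, 7.13 and 38.3 CPM of Itga8. Fras1 was found in 17.8%, 53.3% and 57.5% of ureteric cells, against 2.94%, 1.20% and 27.4% of endothelial cells. Frem2 was found in 33.3%, 31.1% and 58.8% of ureteric cells, against 2.94%, 0.599% and 17.8% of endothelial cells. The stromal share with a Frem1 count was 56 of 399 (Drop-seq), 11.4% (10x) and 50.4% (Fluidigm), against 6.86%, 0.599% and 24.7% of endothelial cells, with overlapping intervals in Drop-seq. Fluidigm endothelium held reads of Itga8, Fras1, Frem1 and Frem2 in 17.8% to 32.9% of cells. In Fluidigm, the cap mesenchyme shares of Fras1 (18.7%) and Frem2 (16.3%) did not exceed the endothelial ones.

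**Figure D4:**
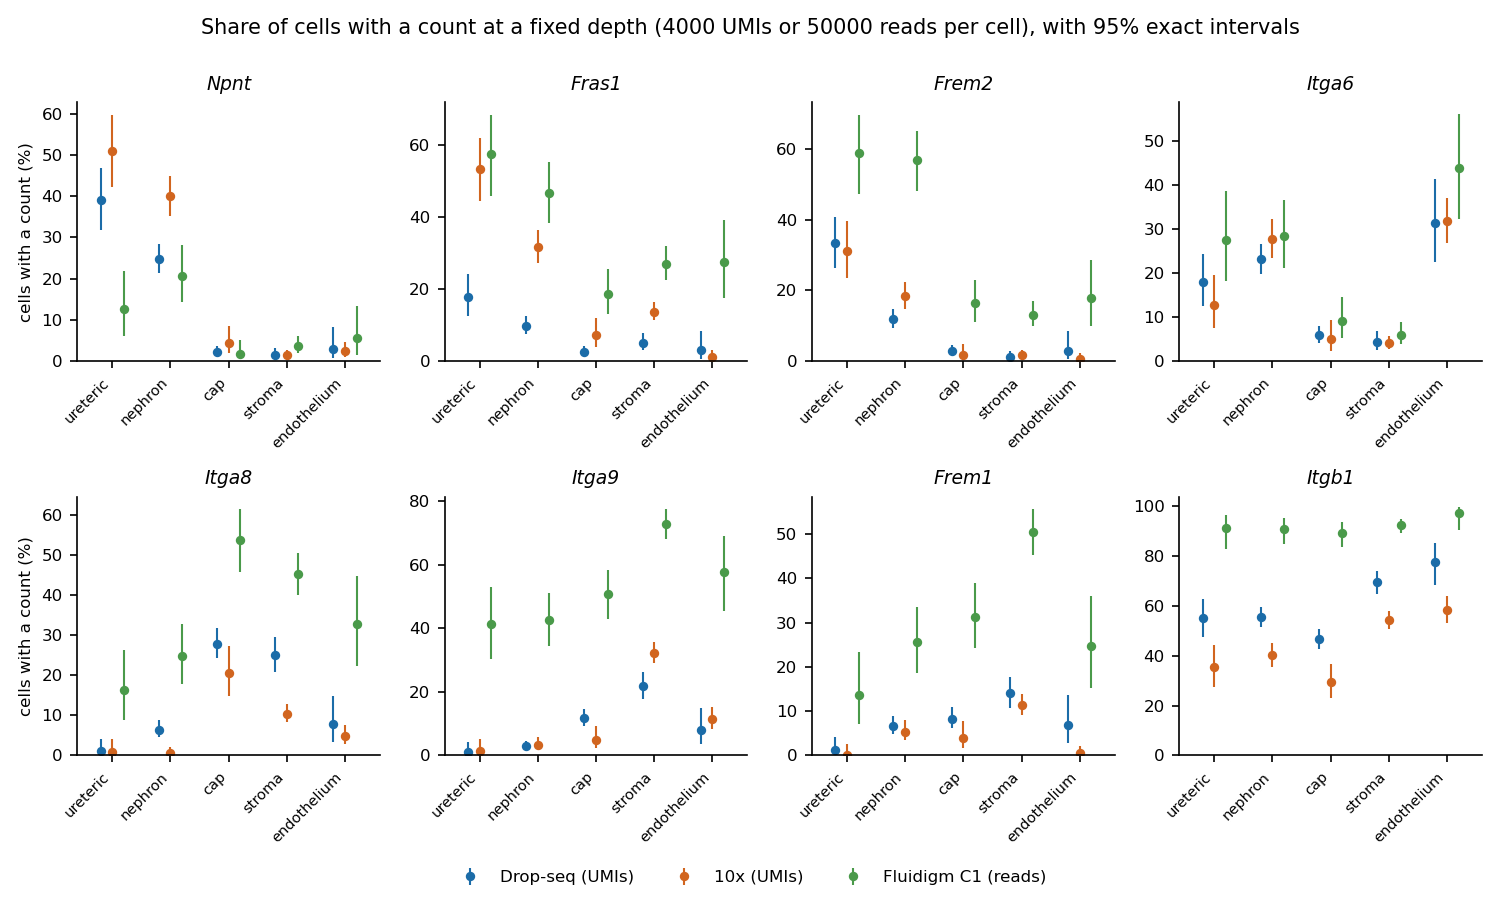
Share of cells with at least 1 count of each gene (y axis, %) by cell class (x axis) after thinning cells to 4000 UMIs (Drop-seq, 10x) or 50000 reads (Fluidigm), with 95% exact binomial intervals for counting error only. Npnt was found in 51.1% of 10x ureteric cells, against 4.44% of cap mesenchyme cells, and the green Fluidigm points lie high in most classes for Itga9 and Itgb1.

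In the droplet libraries ligand and receptor sides stood in different classes, while in Fluidigm the ureteric share of Npnt did not exceed that of Itga8. In Drop-seq, Npnt was found in 39.1% of thinned ureteric cells and Itga8 in 1.15% of them, while Itga8 was found in 27.9% and Npnt in 2.21% of thinned cap mesenchyme cells. In 10x the ureteric shares were 51.1% for Npnt and 0.741% for Itga8, and the cap mesenchyme shares were 20.6% for Itga8 and 4.44% for Npnt. In Fluidigm the ureteric shares were 12.5% for Npnt and 16.25% for Itga8, and the cap mesenchyme shares were 53.6% for Itga8 and 1.81% for Npnt. Ureteric Itga8 in Fluidigm differed between cells by the token in their names, and the labels do not say what these tokens mean. The 40 cells named E14 had 1.09 CPM (9 reads, found in 22.5% of cells), and the 46 named HT had 27.5 CPM (214 reads, 37.0%). Itga8 was also higher in HT than in E14 cells in cap mesenchyme (94.1 and 47.8 CPM), endothelium (51.9 and 18.6), nephron epithelium (27.9 and 13.5) and stroma (67.2 and 60.6). The immune class, of 7 and 6 cells, had the reverse (18.7 and 34.6 CPM).

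Within single cells, partner genes were found together about as often as their separate shares multiply to. Itga8 and Itgb1 were both found in 12.9% of thinned Drop-seq cap mesenchyme cells, where the product of the single shares was 13.0%, in 6.67% of 10x cells (product 6.05%) and in 83 of 166 Fluidigm cells (product 47.8%). Fras1 and Frem2 were both found in 5.17% of Drop-seq ureteric cells (product 5.94%), 14.8% of 10x cells (product 16.6%) and 35.0% of Fluidigm cells (product 33.8%). Each product lay inside the 95% exact interval of the share with both genes. At this depth no joint excess was detectable for these pairs. For Itga8 and Itgb1 in Fluidigm none could have been. The share with both cannot exceed the Itga8 share of 53.6%, whose interval of 45.7% to 61.4% holds the product.

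Ureteric cells were also split at 0 by a score of tip markers minus trunk markers, which cuts a range and not a type. The tip side held 103 of 175 cells in Drop-seq, 83 of 154 in 10x and 43 of 86 in Fluidigm, and 47, 20 and 24 cells lay within 0.25 SD of the cut. Frem2 was the higher on the tip side, with 157 CPM on the tip side and 58.1 CPM on the trunk side in Drop-seq, 113 and 73.5 CPM in 10x, and 107 and 88.5 CPM in Fluidigm. The intervals overlapped in 10x, and those of Fluidigm treat each read as a separate molecule. Npnt was the higher on the trunk side in the droplet libraries, with 160 and 258 CPM in Drop-seq and 157 and 238 CPM in 10x. In Fluidigm the Npnt values were 12.9 CPM on the tip side and 13.1 CPM on the trunk side. Itga6 had 69.8 and 37.0 CPM in Drop-seq, 44.1 and 41.1 CPM in 10x, and 58.1 and 10.7 CPM in Fluidigm. The wide Fluidigm gap was not seen in shares of cells. At the fixed depth Itga6 was found in 28.6% of tip-side and 26.3% of trunk-side Fluidigm cells. These shares were 23.3% and 9.86% in Drop-seq, and 16.2% and 8.20% in 10x. These sides were not tested. The ureteric clusters with no ureteric marker among their top genes had 50.3 CPM of Frem2 in 10x and 29.8 CPM in Drop-seq, against 109 and 137 CPM in the other ureteric cluster of each library, and 252 and 274 CPM of Npnt, against 173 and 182 CPM.

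Other genes of the same system were read from 4 lists. Of 23 other integrin subunits 10 could be tested, and in ureteric epithelium over cap mesenchyme 4 of them were higher (Itga1, Itga2b, Itga3 and Itgb6, named after their values were seen) and the other 6 did not pass, with a background of 7.98% higher and 7.92% lower. In cap mesenchyme over stroma 2 were lower, among them the collagen receptor chain Itga1 (-3.44 ± 0.47, edgeR adjusted p 0.000362), and the other 8 did not pass (background 6.83% higher and 4.81% lower). In nephron epithelium over cap mesenchyme 2 were higher, Itga1 (3.65 ± 0.47, edgeR adjusted p 0.000177) and Itgb6 (5.51 ± 0.77, edgeR adjusted p 0.000419), with a background of 4.34% higher and 3.01% lower. In ureteric epithelium over stroma 2 were higher (Itga3 and Itgb6) and 2 lower (Itga5 and Itgav), with a background of 9.61% and 7.13% and a median log2 fold change of -0.35. Of 6 Fraser complex partners 4 could be tested, and in ureteric epithelium over cap mesenchyme 1 was higher (Vwa2) and 2 were lower, Hmcn1 (-2.18 ± 0.37, edgeR adjusted p 0.00291) and Col7a1 (-3.53 ± 1.01, edgeR adjusted p 0.0260), with a median of -0.64. Against stroma 1 was higher (Vwa2) and 1 lower (Hmcn1). Vwa2, which encodes AMACO, a matrix protein that binds the complex, was higher in ureteric epithelium by 3.16 ± 0.53 over cap mesenchyme (edgeR adjusted p 0.000844) and by 4.39 ± 0.55 over stroma (edgeR adjusted p 5.08e-05). Hmcn1, a hemicentin gene, was lower in nephron epithelium over cap mesenchyme (-2.44 ± 0.36, edgeR adjusted p 0.00251).

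Among 24 other ligands of these integrins, 21 could be tested, and 7 were higher and 3 lower in ureteric epithelium over cap mesenchyme, with a median log2 fold change of 0.03 and a background of 7.98% higher and 7.92% lower. The higher ones included the laminin chain genes Lamc1, at 1.27 ± 0.15, and Lama1, at 2.64 ± 0.32 (edgeR adjusted p 5.89e-05 for each). Against stroma, 5 were higher and 10 were lower, with a median of -2.10 and a background of 9.61% and 7.13%. Vcam1, a ligand of alpha 4 and alpha 9 integrins, was lower in ureteric epithelium over stroma (-5.23 ± 0.45, edgeR adjusted p 2.71e-06) and in cap mesenchyme over stroma (-3.75 ± 0.38, edgeR adjusted p 6.03e-05). Fibronectin (Fn1) and the laminin chain gene Lama2 were also lower in cap mesenchyme over stroma, at -2.77 ± 0.31 and -3.83 ± 0.65 (edgeR adjusted p 0.000389 and 0.00154). In that comparison 1 ligand was higher (Lama5, 1.76 ± 0.35, edgeR adjusted p 0.00462) and 9 were lower, with a background of 6.83% and 4.81%. Lama1 was higher in nephron epithelium over cap mesenchyme by 3.57 ± 0.31 (edgeR adjusted p 1.80e-05).

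Of 22 adaptor and focal adhesion genes 20 could be tested, and 3 were higher and 3 lower in ureteric epithelium over cap mesenchyme, with a background of 7.98% and 7.92%. Fermt1, an epithelial integrin activator of the kindlin family, was higher by 5.05 ± 0.38 (edgeR adjusted p 8.89e-07), and the tetraspanin gene Cd9 by 2.51 ± 0.22 (edgeR adjusted p 6.94e-06). The third higher gene was Vcl (0.59 ± 0.18, edgeR adjusted p 0.0311), named after its value was seen. Kif26b, a kinesin gene needed in mouse for the adhesion of the metanephric mesenchyme, and Dst, a plakin gene, were lower, at -3.40 ± 0.61 and -2.22 ± 0.30 (edgeR adjusted p 0.00226 and 0.000378). Against stroma 3 were higher and 8 lower, with a background of 9.61% and 7.13%. The lower ones included Fermt2, another kindlin gene, at -1.66 ± 0.19 (edgeR adjusted p 3.96e-05), and Ilk, the integrin-linked kinase gene, at -1.01 ± 0.13 (edgeR adjusted p 5.40e-05). Cap mesenchyme was also lower than stroma for Fermt2 (-1.29 ± 0.19, edgeR adjusted p 0.000529) and Ilk (-1.10 ± 0.13, edgeR adjusted p 0.000112). Here 2 genes were higher and 7 lower, with a background of 6.83% and 4.81%.

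The genes whose class pattern was most like that of a member were listed by Pearson's r over the 15 class sums, which share 3 libraries, after subtracting each library's mean. For Npnt these were Prss8 (r = 0.986), Cldn6, Elovl7, Arhgef16 and Grb7. For Itga8 they were Ppp1r14a (r = 0.981), Tril, Tspan7, Camk2a and Top2b. For Fras1 they were Ppp2r3a (r = 0.957), Kank1, Cbr1, Pcdh7 and Abcd3, and for Frem1 Fam105a (r = 0.922), Pkdcc, Foxc2, Dact3 and Zbtb7c. These are descriptions over 12330 genes, with no test.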

How the data were processed

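The deposited raw count tables of the 3 libraries were used, with UMI counts for Drop-seq and 10x and read counts for Fluidigm, each as the authors deposited them. Per the submitters' processing notes, Drop-seq and Fluidigm used Bowtie2 2.2.7, 10x used Cell Ranger 1.3.0, and the build was mm10. No source used here gives the annotation, the counter or the strand setting. The preparation text in the labels describes Drop-seq for all 3 samples. The deposited normalized tables were not used.

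Cells with 500 or more genes and at most 20% mitochondrial counts were kept. Scrublet calls were removed in 10x (17) and Fluidigm (11). Its 5 Drop-seq calls, under 0.5% of cells, were kept, so doublets there are untreated. Each library was clustered alone (scanpy 1.11.5, 2000 variable genes, 30 components, Leiden resolution 1.0). A cluster took the list with the highest mean z score among lists with 3 or more detected markers (globins not counted) that had 1 among the cluster's top 10 genes or 50% or more of the list detected. It stayed unnamed where another class had more markers among those top genes. The rule was set after clusters and their top genes were seen, before class values of the 8 genes were computed. Rows of duplicated symbols (121) were left out.

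Counts were summed per class and library (15 sums of 20 or more cells, 5 classes) and fitted with edgeR 4.0.16 (TMM, quasi-likelihood, library as block, 8 residual degrees of freedom) over 12331 genes. Benjamini-Hochberg adjustment ran over the 9398 genes that served neither clustering nor naming. DESeq2 1.42.0 was an alternative. The fit was tested on simulated data. Intervals (95%, exact Poisson and Clopper-Pearson) and the limit of 3 counts at 0 cover counting error only. The Poisson intervals of Fluidigm treat each read as a separate molecule and are too narrow. CPM are the class sums scaled to a common total over the shared genes. Members and lists were chosen with earlier results of these data known. All 8 members are named, and per comparison up to 10 list genes with the smallest adjusted p and 1 direction in all 3 libraries. The values of 1 list gene that this rule names are not reported here.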

Additional observations from a re-analysis of the deposited data

Results flagged for a closer look

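The Fluidigm library went against the other libraries in 2 results. For Itgb1 in ureteric epithelium over cap mesenchyme its log2 ratio was -0.12, against 0.08 in Drop-seq and 0.26 in 10x. For Npnt in cap mesenchyme over stroma its log2 ratio was -0.065, against 0.92 in Drop-seq and 0.80 in 10x, and both Fluidigm Npnt levels there were under 2 CPM. Neither difference between libraries was tested, and neither fitted value passed (edgeR adjusted p 0.815 and 0.731).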

How the results depend on the processing

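Over ureteric epithelium against cap mesenchyme, ureteric epithelium against stroma, cap mesenchyme against stroma and nephron epithelium against cap mesenchyme, in that order, 1494, 1573, 1094 and 691 genes passed. With 1 library left out the ranges were 290 to 1960, 445 to 2136, 158 to 1602 and 145 to 1154, lowest without Drop-seq and highest without Fluidigm; without 10x they were 645, 713, 264 and 224. The 8 genes gave ranges of 2 to 6, 5 to 8, 1 to 2 and 1 to 6. With no replicate block for the library, 184, 283, 6 and 42 genes passed, and 2, 3, 0 and 1 of the 8 genes. Adjusted over all genes that passed the filter, the counts were 2538, 2898, 2112 and 1532. With the Fluidigm name tokens as separate sums they were 993, 639 and 453 in ureteric epithelium against cap mesenchyme, cap mesenchyme against stroma and nephron epithelium against cap mesenchyme. In cap mesenchyme against stroma 1 of the 8 genes passed with the first naming rule, and 1 without the Fluidigm cap cluster of 93 cells. Both alternatives were added after seeing the data. The first naming rule was replaced by the one used here, which was itself set after clusters were seen. In ureteric epithelium against cap mesenchyme 5 of the 8 passed with each, against 7 in the main fit. With the first naming rule Itga9 (-1.43, edgeR adjusted p 0.114) and Frem1 (-1.30, edgeR adjusted p 0.107) no longer passed.

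Of 576 values of the 8 genes under 18 alternatives, 506 kept direction and side of the threshold, 55 no longer passed, 13 newly passed and 2 reversed. The reversed ones were Itgb1 in ureteric epithelium over cap mesenchyme with Fluidigm name tokens apart (-0.00393) and without 10x (-0.055, with a range of -0.055 to 0.18 over the libraries left out), neither past the threshold. The cause was not tested. Of 720 values of the other named list genes 32 no longer passed. Of 48 values of the shares of cap mesenchyme cells with Itga8 and ureteric cells with Npnt 7 moved, 5 of them by thinning. The others were Itga8 with classes by marker z score, 48.0% in Drop-seq and 70.3% in Fluidigm, against 43.6% and 61.6%. Each platform gave 1 library, so platform and library cannot be told apart. Low counts, as of Itga8 and Frem1 in 10x ureteric cells, limit the folds there.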
